A study of Homo sapiens with 6 samples.

Results

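The HOX genes are the members of the 4 human HOX clusters, taken from the protein-coding genes of the GENCODE version 44 annotation on hg19 by a symbol that is HOXA, HOXB, HOXC or HOXD followed by digits alone. Of 20162 protein-coding genes, 38 HOX genes are described here: 10 in HOXA, 10 in HOXB, 9 in HOXC and 9 in HOXD. Bulk ATAC-seq, in which the Tn5 transposase inserts adapters into open chromatin, was performed on fixed GM12878 cells, a human B lymphoblastoid line made by Epstein-Barr virus transformation. The 6 libraries compared 3 ways to reverse the crosslinks before PCR, with 2 libraries for each. In the SDS libraries the older buffer, which contains SDS, was followed by DNA purification. In the purified SDS-free libraries the new buffer without SDS was followed by purification, and in the unpurified libraries PCR was run directly on the new buffer. All 6 libraries are listed with fixation in 1% PFA, transposition at 37 °C for 30 min and reversal at 65 °C. They are also listed with lysis in Igepal CA-630 at 0.05% and EDTA at 40 mM. Among their bulk methods, the authors give this Igepal level and the EDTA only for the protocol without purification. Whether these steps were the same in all 6 libraries is therefore not certain. All came from 1 cell line, and the labels do not say whether the 2 libraries of a protocol were separate cultures, so p-values below measure only the spread between libraries.

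HOX genes encode homeodomain transcription factors that give positional identity along the body axis. Each cluster is ordered so that genes of low paralogue number lie at the end expressed toward the head and early, and genes of high number at the end expressed toward the tail and late. The clusters are textbook targets of Polycomb repression where they are silent and of Trithorax and MLL complexes where they are active. In blood, HOX genes are mostly used in stem and progenitor cells and are turned down as lymphocytes mature.

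Most HOX gene starts carried no accessibility peak in these cells. A gene start was called accessible in a library when any peak of that library overlapped the 1 kb on either side of it. HOXA6 and HOXC4 were called in all 6 libraries, that is 2 of 38 HOX genes or 5.26%, where 40.4% of all protein-coding genes were called in all 6. HOXA11 was called in 1 library only, the purified SDS-free replicate 2. That made 3 of 38 HOX genes called at least once, or 7.89%, against 54.5% of all protein-coding genes. The other 35 HOX genes had no peak at the start in any library. In single libraries 45.9 to 49.3% of protein-coding gene starts were called, so the low HOX count was not shared by the rest of the annotation.

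By paralogue group, the genes called in all libraries lay in groups 4 and 6. Of the 17 genes in groups 1 to 6, 2 were called in all 6 libraries. Of the 21 genes in groups 7 to 13, none was called in all 6 and HOXA11 was called in 1. Group 4 has a member in every cluster, and of these HOXC4 was called while HOXA4, HOXB4 and HOXD4 were not. In group 6, HOXA6 was called and HOXB6 and HOXC6 were not. No gene described here was called in any library in groups 1, 2, 3, 5, 7, 8, 9, 10, 12 and 13. The uncalled genes thus lay at both ends of the clusters. They include HOXA9 and HOXA10, known from stem cells and leukemia, and the tail-most HOXA13, HOXB13, HOXC13 and HOXD13. With 2 to 4 genes in a group, these counts are a description.

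The clusters differed in how much of them lay in peaks. Each cluster window ran from the first to the last HOX gene described with 20 kb added on both sides, except that the HOXA window has a shorter flank on its low-coordinate side. The HOXA window, chr7:27136620-27259710, had 1.07% ± 0.0832 (SD, n = 6 libraries) of its bases in peaks, with 0.924 to 1.15% in single libraries. The whole genome had 0.527% ± 0.0485 (SD, n = 6), below the lowest HOXA value. The HOXB window, chr17:46585888-46826112, had 0.187% ± 0.0898, and its highest library, at 0.362%, was the unpurified replicate 2. The remaining libraries ranged from 0.113 to 0.190% at HOXB. The HOXC window, chr12:54312615-54469814, had 0.703% ± 0.241, between 0.486 and 1.15%. The HOXD window, chr2:176937449-177075635, had 0.686% ± 0.190, between 0.426 and 0.973%. The order was therefore HOXA, HOXC, HOXD and HOXB, in which HOXC and HOXD did not differ beyond their spread and both overlapped the genome. The highest HOXC library, the purified SDS-free replicate 1, reached the highest HOXA value. The HOXA value moved to 1.32% without flanks and to 0.861% with 50 kb, still above the genome.

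**Figure D1:**
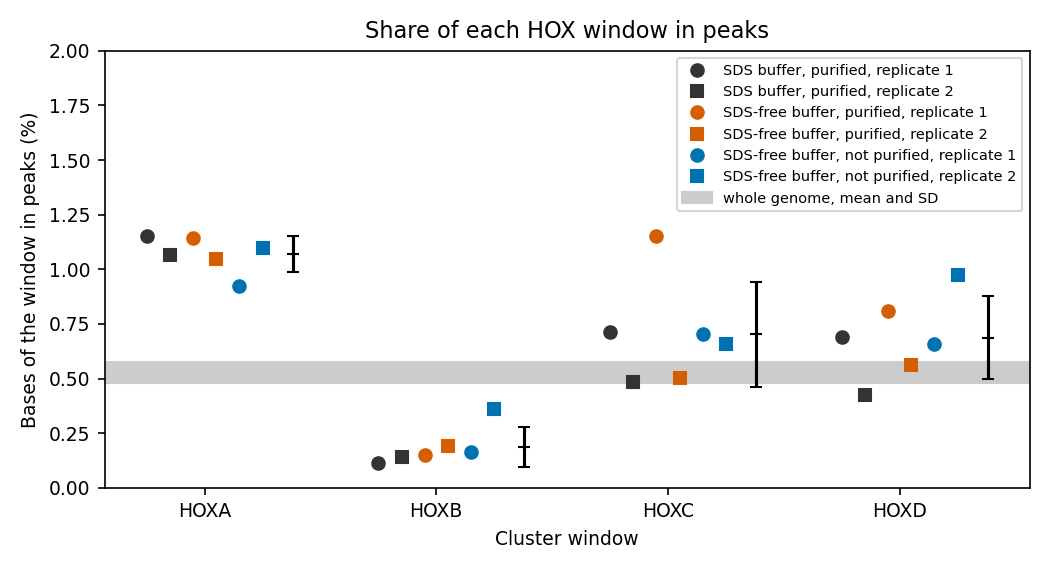
The percent of each cluster window that lay in peaks (vertical axis) is plotted for HOXA, HOXB, HOXC and HOXD. Circles and squares are replicates 1 and 2, colors are the 3 protocols, bars are mean and SD over 6 libraries, and the gray band is the whole genome, mean and SD. All 6 points of HOXA lie at or above 0.924% and all 6 of HOXB at or below 0.362%.

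Peaks of the 6 libraries that overlapped or adjoined were merged into 56447 regions. The 4 windows, 659 kb in all, held 14 regions, or 2.13 in 100 kb against 1.82 over the genome. Of these 14, 7 were called in all 6 libraries, a share of 50%, against 35.5% of all regions. In 1 library only were 4 of the 14, against 27.4% of all regions. HOXA held 3 of the 7 common regions, HOXD 2, and HOXB and HOXC 1 each. Only 2 of the 7 lay at a HOX gene start, and the other 5 were in introns or between genes.

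**Figure D2:**
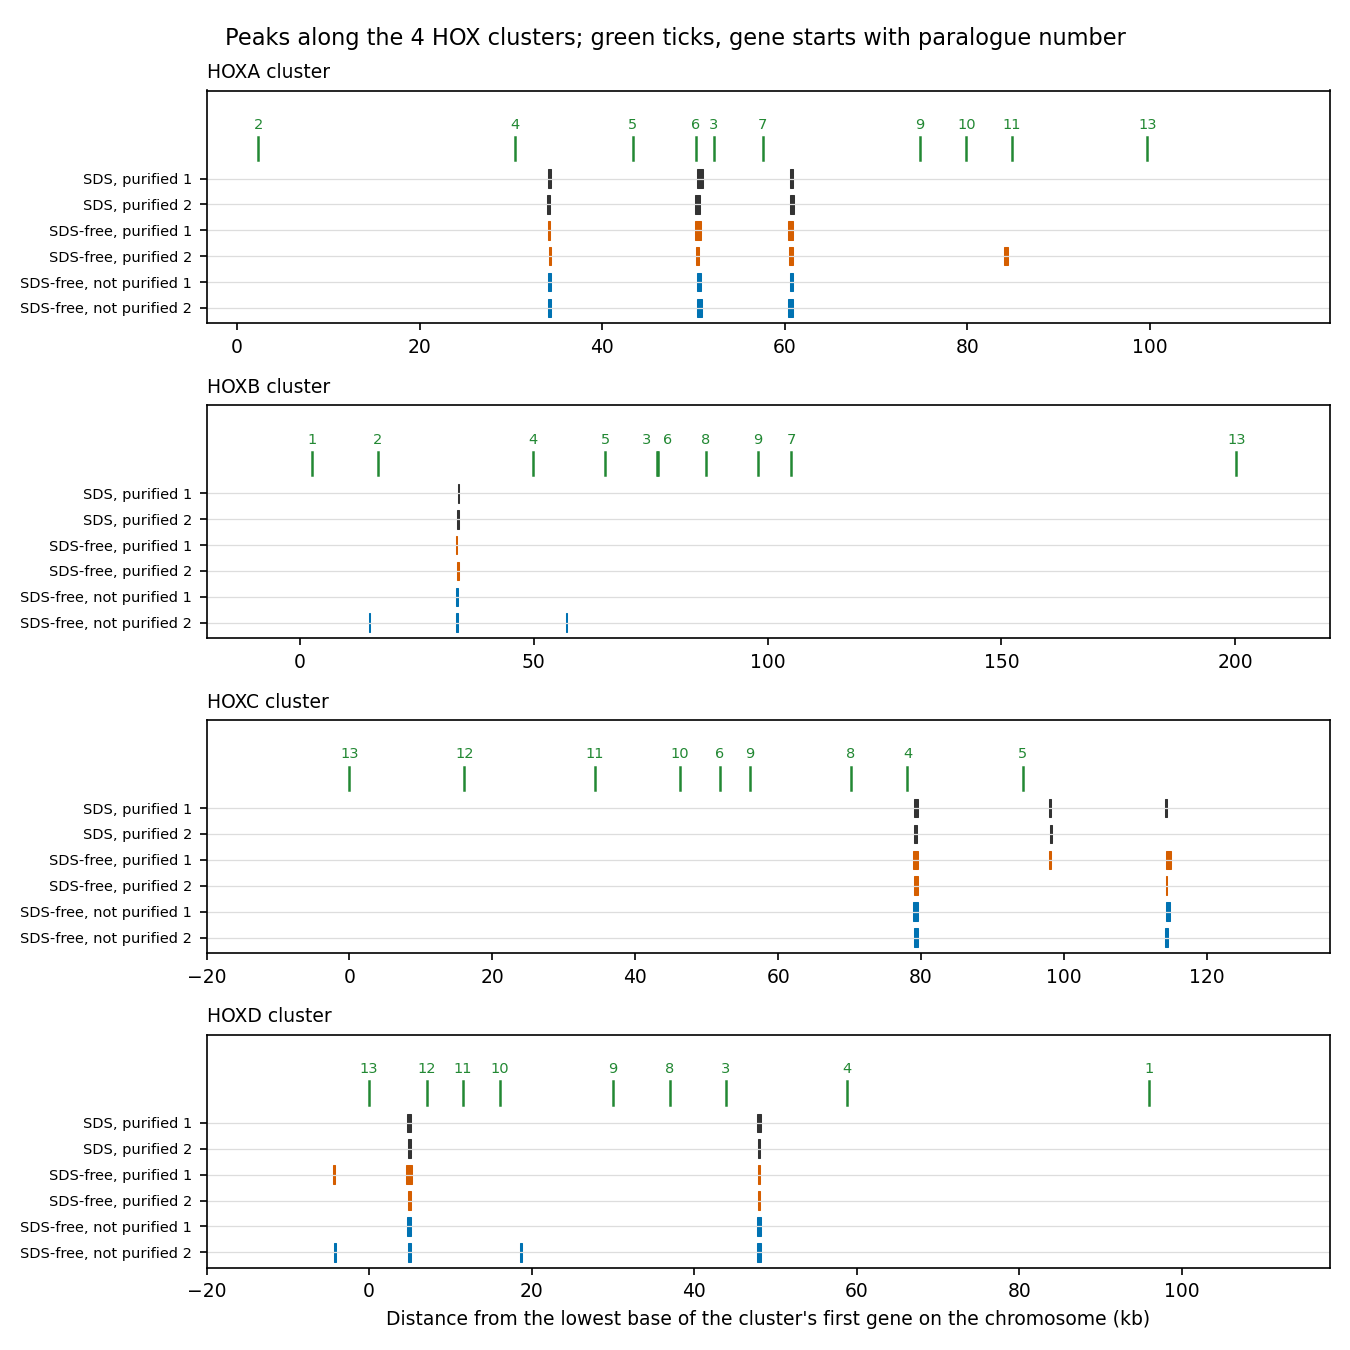
Peaks of the 6 libraries (rows, colored by protocol) are drawn to scale along the 4 clusters, with the horizontal axis in kb from the lowest base of the first gene on the chromosome. Green ticks mark HOX gene starts with their paralogue number. Peaks of all 6 libraries line up at 7 positions, 3 in HOXA, 1 in HOXB, 1 in HOXC and 2 in HOXD, and the other 7 regions are filled in 1 to 5 rows.

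The sequences of 5 common regions show what was open in every library: the 2 at gene starts, 1 intronic, and 2 between genes. Each is the 200 bases around the median summit, read from the hg19 plus strand. They are chr7:27190415-27190614 at HOXA6, chr12:54411751-54411950 at HOXC4, chr17:46639449-46639648 in HOXB3, chr7:27200584-27200783 between HOXA7 and HOXA9, and chr2:176962322-176962521 between HOXD13 and HOXD12. Capitals mark, on either strand, the SP letters GGGCGG, the NF-Y letters CCAAT, the PU.1 letters GAGGAAG and a match to the CTCF consensus. In the HOXD window an NF-Y match overlaps an SP match.
HOXA6: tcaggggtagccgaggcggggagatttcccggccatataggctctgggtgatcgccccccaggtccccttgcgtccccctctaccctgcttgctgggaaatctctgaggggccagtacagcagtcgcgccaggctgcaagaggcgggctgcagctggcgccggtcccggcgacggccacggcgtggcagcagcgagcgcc
HOXC4: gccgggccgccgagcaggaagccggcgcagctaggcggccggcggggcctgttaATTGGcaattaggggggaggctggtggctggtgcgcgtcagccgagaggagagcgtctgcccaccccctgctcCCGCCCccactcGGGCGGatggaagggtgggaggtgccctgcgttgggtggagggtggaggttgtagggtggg
HOXB3 intron: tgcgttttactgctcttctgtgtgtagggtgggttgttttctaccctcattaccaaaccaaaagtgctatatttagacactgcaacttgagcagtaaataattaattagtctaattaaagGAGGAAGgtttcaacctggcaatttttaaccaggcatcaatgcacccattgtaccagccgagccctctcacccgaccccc
HOXA7 to HOXA9: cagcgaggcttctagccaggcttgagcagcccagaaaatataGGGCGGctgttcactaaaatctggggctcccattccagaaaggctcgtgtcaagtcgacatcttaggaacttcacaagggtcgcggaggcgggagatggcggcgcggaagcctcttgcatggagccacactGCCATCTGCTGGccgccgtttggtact
HOXD13 to HOXD12: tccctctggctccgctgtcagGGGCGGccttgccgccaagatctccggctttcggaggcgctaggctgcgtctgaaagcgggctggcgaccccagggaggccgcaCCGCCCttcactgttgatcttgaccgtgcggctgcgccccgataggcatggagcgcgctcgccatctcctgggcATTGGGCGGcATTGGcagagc

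HOXC4 (ENSG00000198353, chr12:54410715-54449814, plus strand), a HOX gene known to act in B cells on the AID gene, had the strongest of the 7 regions. This region, chr12:54411525-54412210, began 810 bp inside the gene, in an intron, and its summit was 1136 bp from the start. Reads at the summit were solved for each library from the fold enrichment and p-value of its peak. They numbered 40 and 28 in the SDS libraries, 32 and 26 in the purified SDS-free libraries, and 26 and 29 in the unpurified libraries. The SDS replicate 1 was the highest, and the 3 protocols overlapped. The mean of 30.2 ± 5.31 (SD, n = 6) exceeded that of 53.1% of the 20064 regions called in all libraries, whose median was 29.2 reads. The peak was 484 to 674 bp wide. Of 3 annotated HOXC4 transcript starts, 1 was called in all 6 libraries. The summit also lay inside the annotated spans of HOXC6, of the protein-coding ENSG00000273049 and of ENSG00000273046, an unnamed lncRNA. The region lay within 1 kb of the start of ENSG00000273046 as well. Which of these genes it serves was not tested. It did not count as a HOXC4 start with a 500 bp window, or when the summit had to lie inside the window. Another region, chr12:54446730-54447660, named after its values were seen, had its summit in an exon of HOXC4. It was called in every library but the SDS replicate 2, at a mean of 19.2 summit reads.

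HOXA6 (ENSG00000106006, chr7:27185015-27190222, minus strand), a mid-cluster paralogue, was covered at its start by chr7:27190182-27191053, whose summit was 293 bp upstream, in an exon of the antisense lncRNA HOXA-AS3. The summit also lay inside the annotated spans of HOXA3 and of the lncRNAs ENSG00000273433 and ENSG00000272801. Of 2 annotated HOXA6 transcript starts, 1 was called in all 6 libraries. Summit reads were 18 and 22 in the SDS libraries, 26 and 17 in the purified SDS-free libraries, and 20 and 17 in the unpurified libraries. No protocol stood apart. The mean of 20.0 ± 3.52 (SD, n = 6) exceeded that of only 16.1% of common regions, so the HOXA6 start was weakly accessible among regions that every library called.

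The 5 common regions away from HOX starts were also weak, at 0.708 to 20.4% of the ranking of common regions. The strongest of them, chr2:176962046-176962704, lay between HOXD13 and HOXD12, at the limb and genital end of its cluster. Its summit reads were 21 and 17 in the SDS libraries, 21 and 22 in the purified SDS-free libraries, and 29 and 16 in the unpurified libraries, so the 2 unpurified libraries were the extremes. Its edge was 1819 bp from the HOXD12 start, and HOXD12 was called in all 6 libraries once the window was 2000 bp.

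A region in an intron of HOXD3, chr2:177005154-177005637, had 20 and 12 summit reads in the SDS libraries, 12 and 16 in the purified SDS-free libraries, and 27 and 21 in the unpurified libraries. Both unpurified values were above the other 4. Between HOXA7 and HOXA9, chr7:27200351-27200994 had 12 and 14 reads in the SDS libraries, 20 and 15 in the purified SDS-free libraries, and 23 and 17 in the unpurified libraries. The 2 SDS values were the lowest of the 6. This interval is known in other cells as a CTCF-bound boundary of the cluster.

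The HOXB cluster had 1 common region, chr17:46639164-46639898, in an intron of HOXB3 and of the antisense HOXB-AS3. It had 16 and 16 reads in the SDS libraries, 17 and 14 in the purified SDS-free libraries, and 14 and 13 in the unpurified libraries. It was even across libraries, at 15.0 ± 1.55 (SD, n = 6). The weakest, chr7:27173934-27174415, lay in an intron of HOXA3 and HOXA-AS3, between the HOXA4 and HOXA5 starts. It had 16 and 12 reads in the SDS libraries, 12 and 9 in the purified SDS-free libraries, and 19 and 19 in the unpurified libraries. The unpurified libraries were highest. The lowest value, 9, was the purified SDS-free replicate 2, and its replicate 1 tied with the SDS replicate 2 at 12.

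**Figure D3:**
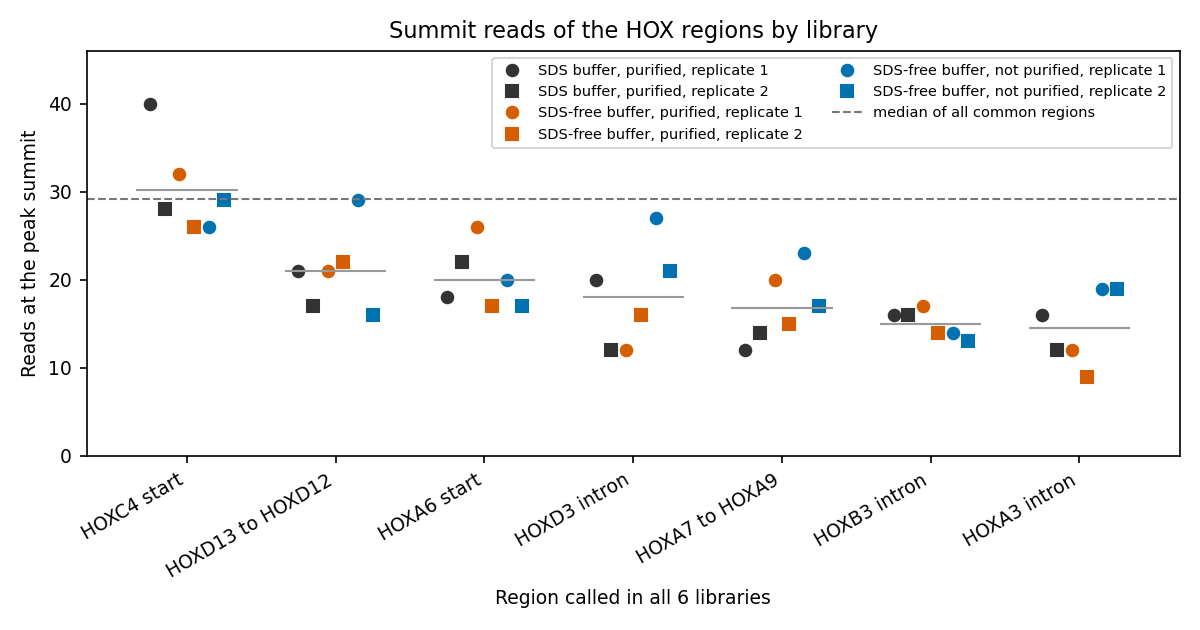
Reads at the peak summit (vertical axis) are plotted for the 7 HOX regions called in all 6 libraries, ordered by mean. Colors are protocols, circles and squares are replicates 1 and 2, short lines are means of 6 libraries, and the dashed line is the median of all common regions, 29.2 reads. HOXC4 crosses that line, and the other 6 regions lie below it in every library.

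Among HOX gene starts, HOXA11 was the exception to all-or-none calling. In the purified SDS-free replicate 2, chr7:27224058-27224400 had 11 summit reads, 644 bp inside the gene in an exon of HOXA11 and HOXA11-AS. The lowest summit of any called peak was 8 or 9 reads, depending on the library, so this peak lay near the limit of calling, and it was lost when a −log10 q of at least 5 was asked for. A start without a peak is one below this limit and is not shown to be closed. The data are bulk, so a site open in few cells and a site slightly open in all cells cannot be told apart.

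Uncalled HOX genes differed in how far they lay from the common regions of their own cluster window. Regions called in fewer libraries and sites outside the windows were not used for these distances. For the 35 genes, the median distance from the start to the nearest of the 7 common regions was 18.9 kb, and 17 of them were over 20 kb away. The median was 10.3 kb for the 8 uncalled HOXA genes, 10.6 kb for the 9 of HOXD, 29.9 kb for the 8 of HOXC and 42.4 kb for the 10 of HOXB. HOXB13, a prostate and hindgut gene, was farthest, at 166 kb. HOXA3 was nearest, at 1149 bp, with an annotated start just past that of HOXA6. Alternative starts added little: with every annotated transcript start in place of the gene start, the same 2 genes were called in all libraries, against 46.6% of all protein-coding genes by that rule, and HOXB2 joined HOXA11 among those called in some.

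Few noncoding genes of the clusters were called. Of 30 lncRNAs with a start in a window, ENSG00000273046 was called in all 6 libraries, in the region it shares with HOXC4, where 14.8% of all lncRNA starts were called in all 6. HOXA11-AS and HOXB-AS1 were called in 1 library each. HOTAIR, the HOXC lncRNA known for acting on Polycomb targets, was not called in any. None of the 7 miRNA genes was called either, and 5.32% of all miRNA starts were called in all 6, so that none of 7 is near the background. None of the 5 other protein-coding genes in the windows was called, among them EVX2, PRAC1 and PRAC2.

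The CpG content at the annotated HOX gene starts was close to that of all genes. The gene start is the outermost annotated one. The 38 HOX genes have 105 transcript starts, and promoters at their other starts were not read. In the window from 250 bp before to 50 bp after the gene start, the median CpG observed over expected ratio was 0.707 for HOX genes and 0.694 for all protein-coding genes. Of 28 HOX genes with a ratio of at least 0.6, a limit chosen after the data were seen, 1 was called in all libraries, HOXC4. Of all 11685 protein-coding genes at or above it, 59.8% were. Of the 10 HOX genes below it, 1 was called, HOXA6, against 13.8% of all genes below it. CCAAT occurred on either strand in 22 of 38 HOX promoters, against 35.8% of all promoters, and GGGCGG in 15 of 38, against 52.1%. GAGGAAG and CCGGAAG were in 1 of 38 each, against 13.5 and 11.8%. AGGGGGC was in 6 of 38, against 16.5%, and TATAAA in 5, against 10.9%. GGGNNTTCC and TGATTNAT were in 2 each, against 7.14 and 2.32%. The CTCF consensus was in 0 of 38, against 0.531%.

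In the 200 bases at the summit, 5 of the 7 common regions had more GC than the median of 53% over all common regions, while the introns of HOXA3 and HOXB3, at 42 and 43.5%, had less. The median over the 7 was 68.5%. The CpG ratio was at least 0.6 in the same 5. GGGCGG was found in 4 of 7, at HOXC4, HOXD3 and both intergenic regions, against 33.8% of all common regions. CCAAT was found in 2 of 7, against 28.3%, and the PU.1 letters in 1, the HOXB3 intron, against 8.88%. The CTCF core AGGGGGC, the ETS letters CCGGAAG, the NF-kB letters GGGNNTTCC, the TATA letters TATAAA and the PBX-HOX letters TGATTNAT were in none of the 7, against 8.93, 7.91, 7.98, 6.56 and 3.20% of common regions. The longer CTCF consensus, searched after the regions were seen, was in 1 of 7, against 1.21%. It lay between HOXA7 and HOXA9, on the minus strand at chr7:27200757-27200768, starting 73 bp from the summit. Such matches are descriptions of letters and say nothing about binding.

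Genes that work with or on the HOX clusters were counted in the same way. The TALE proteins PBX, MEIS and PKNOX bind DNA together with HOX proteins, and 4 of 9 TALE genes were called in all 6 libraries: PBX3, MEIS2, PBX4 and PKNOX1. PKNOX1 had 41 to 64 summit reads. Of 16 Polycomb genes 8 were called in all, among them EZH2, the H3K27 methyltransferase, at 47 to 76 reads, and SUZ12, its partner, at 10 to 15 reads. Of 11 Trithorax and MLL complex genes 8 were called in all, among them KMT2A, the founding MLL gene, at 19 to 32 reads, and KDM6A, an H3K27 demethylase, at 56 to 84 reads. The background was again 40.4%.

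Few starts were called among the listed ParaHox and neighboring homeobox genes, of which EVX2 was also counted above in the HOXD window. Of 13 ParaHox and neighboring homeobox genes, MNX1 was called in all 6 libraries, at 38 to 51 reads, and the other 12 in none, including CDX1, CDX2 and CDX4, which regulate HOX genes in the embryo. Markers were used to check the cell type. Of 10 B cell markers, EBF1 and MS4A1 were called at the gene start in all 6 libraries, at 40 to 47 and 39 to 52 reads, and 4 more in some libraries. The share called in all, 20%, was below the 40.4% of all protein-coding genes. With any transcript start, 6 of 10 were called in all, against the 46.6% of all protein-coding genes, and the ParaHox count stayed at 1 of 13. Of 16 markers of T, myeloid, erythroid, epithelial and stromal cells, CD8A was called in all libraries at 15 to 23 reads and CD14 and COL1A1 in some, while the CD3 genes, HBB, GATA1 and EPCAM were called in none.

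**Figure D4:**
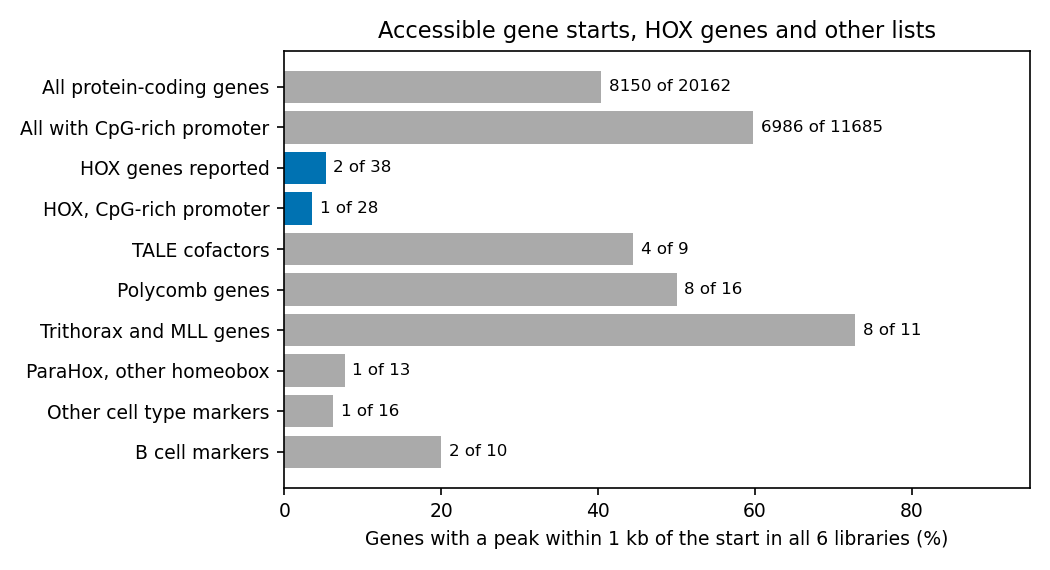
Bars give the percent of genes in each list with a peak within 1 kb of the start in all 6 libraries, with the counts beside them. HOX genes, at 2 of 38, and HOX genes with a CpG-rich promoter, at 1 of 28, lie below all protein-coding genes, at 8150 of 20162, and near the ParaHox list, at 1 of 13.

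The protocols were compared to ask whether the buffer or the purification changes which HOX sites are seen. The number of HOX genes called was 2 in 5 libraries and 3 in the purified SDS-free replicate 2, and the difference rests on HOXA11. The mean number therefore differed by 0.5 between the purified SDS-free and the SDS protocol, by 0 between the unpurified and the SDS protocol, and by −0.5 between the unpurified and the purified SDS-free protocol. Between 8 and 12 regions of the 4 windows were called in a library. No test of these counts was made, since 2 libraries against 2 cannot give an exact two-sided p below 0.333.

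Regions specific to a protocol were those called in both libraries of one and neither of the other. Between the purified SDS-free and the SDS protocol there were 0 among 11 HOX regions, where the share over all regions was 5.03%. Between the unpurified and the SDS protocol there was 1 of 13, where the share was 5.22%. It was chr12:54430518-54430881, in an intron of HOXC4, named after its values were seen, with 15 and 13 summit reads in the SDS libraries and 16 in the purified SDS-free replicate 1. It was not called in the other 3 libraries. Between the 2 SDS-free protocols there were 0 of 14, where the share was 4.47%.

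The 7 common regions were also compared by their summit reads with limma, fitted on log2(reads + 1) of all 20064 common regions with each library centered on its median. Only regions called in all 6 libraries entered, so a site lost under a protocol, such as chr12:54430518-54430881, could not be tested. Every value that entered was also at or above the limit of calling. limma pooled the spread over regions of similar mean, so SEs, intervals and p-values follow that pooled spread more than a region's own. SEs were 0.26 at the HOXB3 intron and 0.27 at the HOXD3 intron, where SDs of reads over 6 libraries were 1.55 and 5.83. None of the 7 passed an adjusted p of 0.05 in any comparison. Over all regions the share that passed was 0.0498% for purified SDS-free against SDS, 0.0199% for unpurified against SDS and 0% for unpurified against purified SDS-free, or 10, 4 and 0 regions. At an unadjusted p under 0.05 there were 0, 0 and 2 of the 7, against 8.57, 8.45 and 4.32% of all regions. Those 2 were the HOXA3 and HOXD3 introns. Their log2 differences, unpurified minus purified SDS-free, were 0.71 (SE 0.26, limma adjusted p = 1) and 0.64 (SE 0.27, limma adjusted p = 1). The 95% intervals ran from 0.20 to 1.22 at HOXA3 and from 0.10 to 1.18 at HOXD3. With each library left out in turn, the HOXA3 difference ran from 0.64 to 0.78. The HOXD3 difference ran from 0.32, without the purified SDS-free replicate 1, to 0.96, without its replicate 2.

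The largest of the 7 differences between the purified SDS-free and the SDS protocol was 0.42 on the log2 scale at the HOXA7 to HOXA9 region, with a 95% interval from −0.11 to 0.95 and a limma adjusted p of 0.674. It was 0.22 without the SDS replicate 1. The largest between the unpurified and the SDS protocol was 0.51 at the HOXD3 intron, with an interval from −0.02 to 1.05 and a limma adjusted p of 0.615. It was 0.26 without the SDS replicate 2. At HOXC4 the same difference was −0.35, with an interval from −0.80 to 0.10, and at HOXA6 −0.18, with an interval from −0.71 to 0.35. Without the SDS replicate 1 the HOXC4 value was −0.20, and without the SDS replicate 2 the HOXA6 value was 0.06. These intervals hold differences in both directions, so neither a shift of this size nor its absence is shown. The median over the 7 was −0.02, 0.11 and −0.09 in the 3 comparisons in the order above, beside 0.03, 0.04 and 0.01 over all common regions. Each of these medians over the 7 turned sign when 1 library was left out, so they show no direction. The first became 0.07 without the SDS replicate 2, and the second −0.25 without the unpurified replicate 1. The third became 0.27 without the unpurified replicate 2 and 0.01 without the purified SDS-free replicate 2. The first also turned to 0.03 with reads divided by the lowest local background, and the second to −0.32 over the 3 regions with a −log10 q of at least 5 in every library.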

How the data were processed

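The members and gene lists were chosen with earlier results of these data known. The authors mapped reads to hg19 with Bowtie2 2.1.0, removed duplicates with Picard 1.79, dropped mitochondrial reads, filtered blacklisted and mitochondria-like sequence, and ran MACS2 for narrow peaks, q-value 0.01, in a version not given in the sources used here. Their methods merge the libraries of a condition before calling, but there is 1 list per library here. Per deposited peak there is a score (10 times the −log10 q), a fold enrichment at the summit, which is a ratio over local background, a −log10 p, a −log10 q and the summit offset. The authors' own comparisons were not used.

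Summit reads were solved from the fold and p, with a Poisson background, to within 0.001 for 100% of peaks. They are solved values and no counts from the authors, so a count model was not run. Libraries held 30136 to 38023 peaks, with a median of 20 to 22 reads at the summit and a lowest local background of 1.51 to 1.86 reads, a relative depth. Read totals were not used. Differences in summit reads between libraries hold variation between libraries as well as counting error. Peaks were compared by position with any overlap, against GENCODE 44 gene starts. limma 3.58.1 in R 4.3.3 used a mean-variance trend, a pseudocount of 1, all 6 libraries, and Benjamini-Hochberg adjustment over all common regions, and was tested on simulated data. Motif letters were sought on both strands. The RefSeq promoter table matched too few HOX genes, so promoters were read from GRCh37, the same build as hg19, at the GENCODE starts. A HOX gene that meets the rule, with the sequence around its start, is not reported here and was left out of the HOX counts and windows. Every other HOX gene was counted, and every region in a window that was called in all libraries or lay at a HOX start. The alternatives were a stricter q, equal peak numbers, other windows, starts and overlap rules, each replicate left out, and other scalings, pseudocounts and fits. The 12-position CTCF consensus and the promoter CpG limit were added after seeing the data.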

Additional observations from a re-analysis of the deposited data

How the results depend on the processing

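HOXA6 was called in all libraries under each alternative. HOXC4 dropped out of that list with a 500 bp window, with the summit required inside the window, or with 100 bp covered, which left 1 gene. With a 2000 bp window 4 HOX genes were called in all libraries and 6 in at least 1. The HOXA3 and HOXD12 starts were the 2 gained. The counts under other windows and overlap rules have no background beside them. The share of all protein-coding genes was counted only within 1 kb of the gene start or of any transcript start. Without the purified SDS-free replicate 2 the genes called at least once numbered 2. The HOXA share of bases in peaks was 0.859% with a −log10 q of at least 5, 0.933% with 30136 peaks per library, 1.32% without flanks and 0.861% with 50 kb flanks, and the HOXD share was 0.884% without flanks. The unpurified minus SDS difference in called HOX genes was 0.5 with the 2000 bp window, with all transcript starts and with 100 bp covered.

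No HOX region passed the threshold in any fit run, including the one with the replicate block, which gave 0 in each comparison and 10, 4 and 0 over all common regions. Same-numbered libraries did not deviate together, with correlations of −0.0040, −0.0024 and 0.015. Over all common regions, purified SDS-free against SDS gave 5 regions with quantile normalization, 4 with division by the lowest background, 0 without the trend, and 1 to 14 with a replicate left out. It fell to 5 without SDS replicate 1 and to 1 without SDS replicate 2. Unpurified against SDS gave 0 without the trend and 0 to 7 with a replicate left out. It gave 0 without SDS replicate 1 or either unpurified library, 1 without SDS replicate 2, and 7 without either purified SDS-free library. Unpurified against purified SDS-free gave 0 to 1, the 1 being without purified SDS-free replicate 1. The cause was not tested. Division by the lowest background shifted the median of that last comparison by −0.13, and under it 1 of 7 HOX regions changed sign in that comparison, the HOXA7 to HOXA9 region from 0.08 to −0.05. The HOXB3 intron changed sign in purified SDS-free against SDS, from −0.02 to 0.03. Depth limits these results: the weakest called summits held 8 or 9 reads.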
